A study of Mus musculus with 2 samples.

Results

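Vimentin, gelsolin-family, annexin, S100, tetraspan-like and galectin transcripts were examined in hepatocytes of mice given an NRAS transgene. The cells were compared by their level of Nras transcript, which does not show for each cell whether it carried the transgene. The set held 10 genes (Vim, Anxa1, Anxa2, Anxa3, S100a6, S100a10, S100a11, Capg, Tm4sf1 and Lgals1) of 31053 gene rows, the fluorescent reporter and hashtags left out. The genes were chosen by symbol with earlier results of these cells in view, including how some of them varied with Nras, so their differences between Nras levels are a description and carry no test.

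The cells came from 3 female C57BL/6 mice aged 6 to 8 weeks at injection, with livers collected at day 6. Plasmid was delivered by hydrodynamic injection into the tail vein, which transfects part of the hepatocytes. Of these mice, 2 received a Sleeping Beauty transposon encoding oncogenic NRAS(G12V) and 1 received the effector-loop mutant NRAS(G12V/D38A), so every mouse carried a transgene, with the mVenus reporter behind the same CAGGS promoter, and the transposase plasmid. Hepatocytes were tagged by mouse with hashtag antibodies, sorted for mVenus, pooled and sequenced by droplet 3′ RNA-seq, which counts UMIs (unique transcript molecules), as 1 gene library and 1 hashtag library. The labels give 2 capture lanes, which the barcodes do not tell apart. The deposited table gives hashtag 1 to the D38A mouse and hashtags 2 and 3 to the G12V mice, whereas the study's methods give hashtag 3 to the D38A mouse. Mice are therefore named by hashtag, and no comparison of G12V with D38A was made. By the deposited table hashtags 1 and 2 carried different constructs, and by the methods the same one. Pooled levels, the fit and agreement between these mice may therefore span both constructs.

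A barcode was called a hepatocyte when Alb, Apoa1, Apoa2, Ttr and Fgb together made up at least 1% of its UMIs and it carried no non-parenchymal gate, meaning at least 3 markers and 0.1% of UMIs of an endothelial, macrophage, leukocyte, T and NK, B or stellate list. Of 13151 barcodes, 8815 met this, and 2172 of them held at least 10000 UMIs and are called deep hepatocytes. Their Nras CPM (UMIs scaled to a total of 1000000 per cell or per sum of cells), which takes up reads of the construct as well as of the mouse gene, set 4 levels, namely baseline (under 300, 1610 cells), low (300 to 1000, 258 cells), intermediate (1000 to 3000, 173 cells) and high (3000 or more, 131 cells). The mVenus level rose with them from 7.8 to 79.5, 175.5 and 391.9 CPM. Within 10% of the 3 limits lay 46, 55 and 26 cells. Hashtag 1 held 122, 30, 24 and 22 of the deep hepatocytes in the 4 levels and hashtag 2 held 812, 137, 91 and 70. Hashtag 3 held only 11 at baseline and 2 at high Nras, and 851 deep hepatocytes had no hashtag call. Median depth was 36882 UMIs at baseline and 53371 at high Nras. Intervals given below are exact 95% Poisson intervals and cover counting error only.

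Vimentin is the intermediate filament of mesenchymal cells and is sparse in mature hepatocytes, whose filaments are built from the keratins Krt8 and Krt18. Annexins bind membrane phospholipids when calcium rises. S100 proteins, most but not all of them calcium sensors, are small partners of annexins, S100a10 with Anxa2 being the best-known pair. Capg caps the ends of actin filaments, Tm4sf1 is a surface protein with 4 membrane-spanning segments, and Lgals1 is a galactoside-binding lectin. In liver these genes are known from injured, regenerating or dedifferentiating epithelium as well as from stroma.

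By the mm10 assembly (GRCm38), S100a11 (chromosome 3, 93520488 to 93526287) and S100a10 (93555080 to 93564643) lie 28792 bases apart on the plus strand in the S100 gene cluster, and S100a6 (90612882 to 90624181) lies on the same chromosome. Tm4sf1 (57285611 to 57301988) is the fourth member on chromosome 3. The others are Vim on chromosome 2 (13573927 to 13582826), Anxa1 on 19 (20373428 to 20390944), Anxa2 on 9 (69453620 to 69491795), Anxa3 on 5 (96793339 to 96845966), Capg on 6 (72544391 to 72562983) and Lgals1 on 15 (78926725 to 78930465).

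Promoter sequence was available for 7 of the 10 genes in the RefSeq table (GRCm38.p6), with Anxa3, S100a10 and Lgals1 not analysed. The 250 bases before each start site were searched on both strands for 5 motifs. The AP-1 motif TGANTCA, the binding site of Fos and Jun family factors downstream of RAS and ERK signalling, was found in 2 of 7 (28.6%), Anxa2 and S100a11, against 6.87% of all 27025 promoters. The ETS core CCGGAA was found in Vim and Anxa1 (28.6%, against 12.2%), the TEAD motif GGAATG in Anxa1 (14.3%, against 12.6%), the GC box GGGCGG in Anxa2 and S100a11 (28.6%, against 32.9%), and the CArG box in 0 of 7 (against 1.4%). No AP-1 match overlapped another listed match. For Vim, Anxa1 and Capg all 250 bases lay past the gene's first annotated base. The Vim and Anxa1 matches therefore lie inside the annotated genes. With so few promoters these shares are a description only. The sequences of the AP-1 pair are shown with S100a6, a strongly varying gene in which these letters were not found, each up to the last base before the gene's first annotated base, with AP-1 matches in capitals. They lie on the plus strand at chr9:69453433-69453619, chr3:93520246-93520487 and chr3:90612644-90612881. The Anxa2 match began 95 bases before the RefSeq start site, and those of S100a11 began 136 and 38 bases before it.
Anxa2: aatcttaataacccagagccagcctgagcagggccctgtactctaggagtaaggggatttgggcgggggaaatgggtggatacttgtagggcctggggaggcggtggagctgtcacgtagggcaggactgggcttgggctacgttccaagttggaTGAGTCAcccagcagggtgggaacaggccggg
S100a11: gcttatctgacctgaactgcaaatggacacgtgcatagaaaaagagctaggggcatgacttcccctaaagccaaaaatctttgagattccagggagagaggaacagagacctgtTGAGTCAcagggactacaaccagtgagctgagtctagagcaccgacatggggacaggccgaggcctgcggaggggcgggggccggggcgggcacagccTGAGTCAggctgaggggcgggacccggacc
S100a6: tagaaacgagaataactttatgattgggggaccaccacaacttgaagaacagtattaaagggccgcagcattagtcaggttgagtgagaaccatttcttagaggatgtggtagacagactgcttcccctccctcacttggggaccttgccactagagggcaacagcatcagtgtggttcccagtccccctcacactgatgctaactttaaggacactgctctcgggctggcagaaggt

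Across Nras levels 8 of the 10 genes were more than 2-fold higher in high than in baseline hepatocytes on the pooled log2(CPM + 1) scale. The median log2 ratio of the 10 was 2.21, and it was 1.85 in hashtag 1, 2.33 in hashtag 2 and 1.94 in cells with no hashtag call. Of 6908 genes at 10 CPM or more in a level, 350 (5.07%) were over 2-fold higher, with a median log2 ratio of 0.07. Because the genes were picked with this contrast known, nothing is read from that difference. Lgals1 and Anxa1 were the exceptions, and placing Anxa1 at the limit its count of 0 allows leaves the median as it is.

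**Figure D1:**
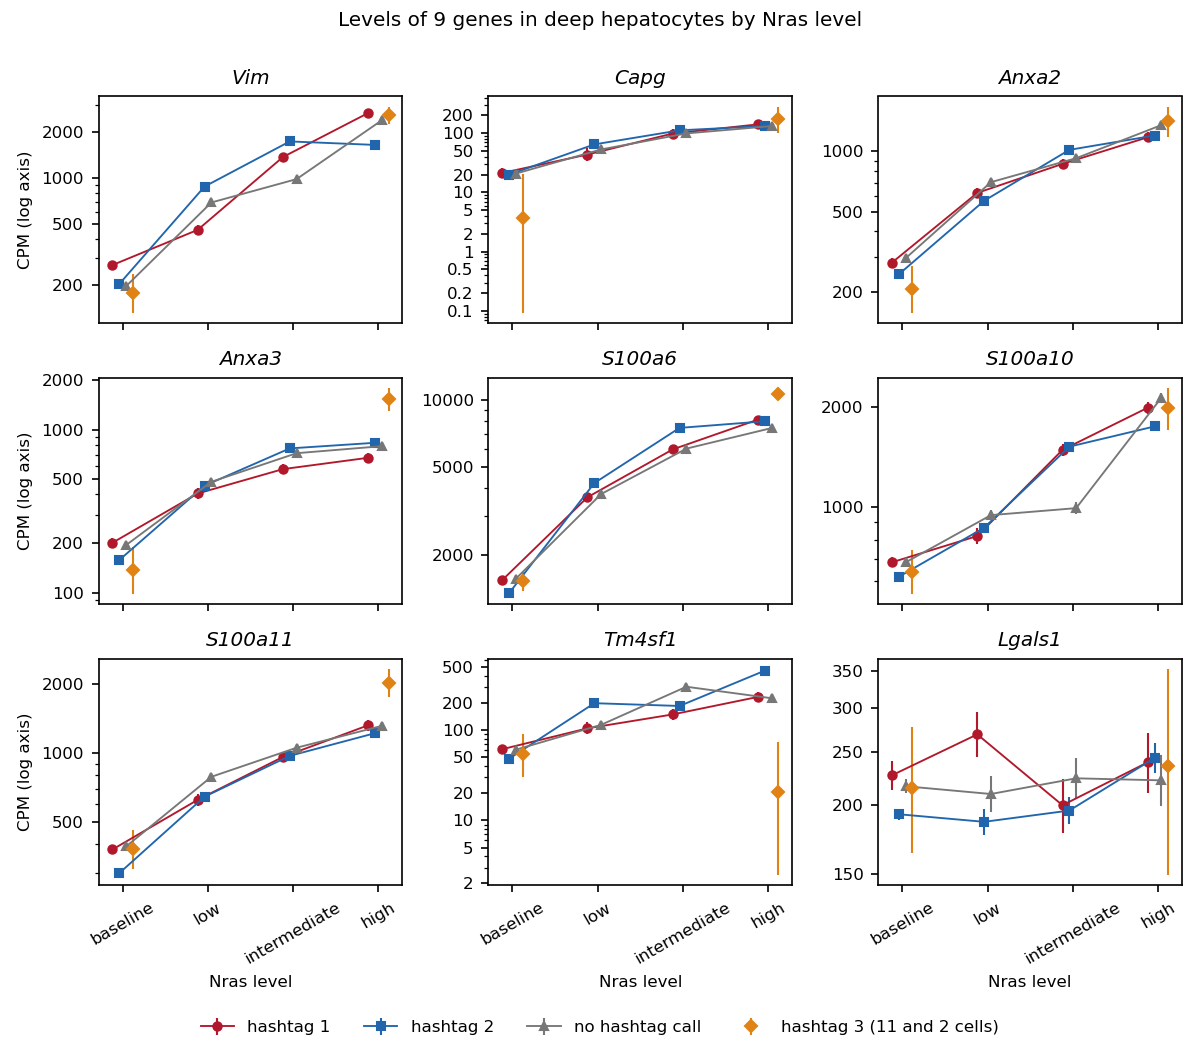
CPM on a log axis of 9 genes in deep hepatocytes at 4 Nras levels, by hashtag, with exact 95% Poisson intervals (counting error only, often smaller than the point). Vim, Capg, the annexins and the S100 genes climb in hashtag 1, hashtag 2 and the cells with no call, while Lgals1 stays between 186.4 and 268.7 CPM in the sums of hashtags 1 and 2.

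Vim had the largest ratio of the set in the pool, in hashtag 1 and in cells with no call, and Tm4sf1 had the largest in hashtag 2. Its level in hashtag 1 was 270.8, 459.2, 1369 and 2649 CPM from baseline to high Nras, and in hashtag 2 it was 203.8, 878.8, 1730 and 1642 CPM. Cells with no call went from 197.2 to 2376 CPM, and the 11 baseline cells of hashtag 3 had 178.4 CPM (132.0 to 235.8) against 2569 CPM (2261 to 2908) in its 2 high-Nras cells. High was above baseline in every one of these sums and did not overlap it. The pooled level was 206.7 CPM (203.1 to 210.4) at baseline and 1975 CPM (1942 to 2008) at high, a log2 ratio of 3.25, with 3.29 in hashtag 1 and 3.58 in cells with no call. In hashtag 2 it was 8.06-fold higher as a plain ratio of CPM, against 9.46-fold for Tm4sf1. The mice differed at the top: from intermediate to high the log2 ratio was 0.95 in hashtag 1 and −0.08 in hashtag 2. In hashtag 1 at high Nras 1 cell held 23.9% of the Vim UMIs.

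Capg, the actin-capping member, was low but changed by nearly the same ratio in both mice. Hashtag 1 had 21.3, 43.6, 98.6 and 140.8 CPM over the 4 levels and hashtag 2 had 19.9, 64.6, 111.6 and 131.9 CPM. The order of the levels was the same in both, and the log2 ratio of high to baseline was 2.67 in each.

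The calcium-dependent membrane binders Anxa2 and Anxa3 climbed in step. Anxa2 went from 280.0 to 622.1, 867.4 and 1177 CPM for hashtag 1, and from 244.7 to 568.2, 1019 and 1201 CPM in hashtag 2. Anxa3 went from 202.0 to 405.1, 571.6 and 671.0 CPM for hashtag 1, and from 158.2 to 452.3, 766.1 and 829.3 CPM in hashtag 2. The log2 ratio of high to baseline was 2.07 and 2.29 for Anxa2 and 1.73 and 2.38 for Anxa3, so the mice differed more in Anxa3. With the Nras quartiles in place of fixed limits the pooled Anxa3 ratio was 2.95 rather than 2.21.

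Anxa1, the annexin best known as a glucocorticoid-induced anti-inflammatory protein, was close to absent from hepatocytes. It had 10 UMIs in 1610 baseline cells (0.167 CPM, 0.0801 to 0.307), of which 1 cell held 60%, and 1, 2 and 0 UMIs at low, intermediate and high Nras. The count of 0 allows up to 0.429 CPM (3 UMIs of the level's total), so no ratio is given.

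The S100 genes S100a6, S100a10 and S100a11 all stood higher at high Nras. S100a6 went from 1538 to 3636, 5975 and 8143 CPM among hashtag 1 cells, and from 1343 to 4212, 7471 and 8003 CPM among those of hashtag 2, log2 ratios of 2.40 and 2.57. S100a11 went from 380.1 to 625.8, 962.8 and 1323 CPM for hashtag 1, and from 299.7 to 645.9, 973.2 and 1222 CPM in hashtag 2, log2 ratios of 1.80 and 2.02. Both climbed at every step in each mouse. S100a10, the partner of Anxa2, started from a higher baseline relative to its own high level: 684.0, 819.5, 1484 and 1984 CPM for hashtag 1, and 618.8, 867.7, 1517 and 1744 CPM in hashtag 2, log2 ratios of 1.53 and 1.49. Its pooled ratio of 1.53 fell to 0.89 when the hepatocyte gate was set at 5% of UMIs.

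Tm4sf1, a surface protein otherwise typical of endothelium, was unevenly spread over cells, with UMIs in 35% of them at baseline and 47.3% at high Nras. It had 61.7, 105.1, 149.9 and 234.4 CPM for hashtag 1, and 48.4, 199.7, 186.0 and 458.3 CPM in hashtag 2. High exceeded baseline in both, but the order of low and intermediate differed between the mice. In the pool 1 cell held 19.8% of the high-level UMIs, and the median cell had 0 CPM at every level. Its pooled log2 ratio of 2.75 became 1.85 without hashtag 2. The 2 high-Nras cells of hashtag 3 gave 20.5 CPM (2.48 to 74), below that mouse's baseline of 54.6 CPM (30.6 to 90.1).

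Lgals1 varied little. It had 226.5, 268.7, 199.8 and 239.1 CPM for hashtag 1, and 192.4, 186.4, 195.4 and 243.4 CPM in hashtag 2. No order of the levels was shared by the mice. The pooled levels were 203.1 CPM (199.5 to 206.7) at baseline and 237.7 CPM (226.4 to 249.4) at high, a log2 ratio of 0.23, with 0.08 and 0.34 in hashtags 1 and 2. With the hepatocyte gate at 5% it was −0.57, so its direction depended on which cells counted as hepatocytes.

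The median step was widest from baseline to low Nras. The levels were not evenly spaced, with pooled median Nras of 51.6, 543.8, 1616 and 5431 CPM, so the steps are not slopes per unit of Nras. Over the 10 genes the pooled median log2 ratio was 1.29 from baseline to low, 0.66 from low to intermediate and 0.33 from intermediate to high. In hashtag 1 the same medians were 0.76, 0.56 and 0.45, and in hashtag 2 they were 1.36, 0.77 and 0.22, so the decline was shallower in hashtag 1. Single genes departed from this. S100a10 had 0.45 for the first step and 0.65 for the second in the pool, Lgals1 had its widest step last (0.23), and in hashtag 1 the second step was the widest for Vim (1.57 against 0.76 for the first), Capg (1.16 against 1.00) and S100a10 (0.86 against 0.26).

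Finer bins showed differences below the baseline limit and little change at the top. Among cells under 30 Nras CPM (556 cells) Vim was 95.4 CPM, and it was 178.9 CPM at 30 to 100, 299.0 CPM at 100 to 200 and 527.7 CPM at 200 to 300. Anxa3 moved over the same bins from 82.3 to 170.7, 271.2 and 298.7 CPM and S100a6 from 807.5 to 1321, 2149 and 2550 CPM. All 3 had therefore climbed more than 3-fold within the cells counted as baseline. At the other end, cells at 3000 to 5000 (58 cells) and at 5000 or more (73 cells) had 2108 and 1861 CPM of Vim, 798.4 and 813.2 CPM of Anxa3 and 8223 and 7691 CPM of S100a6. Tm4sf1 was uneven there, with 527.5 and 225.9 CPM.

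**Figure D2:**
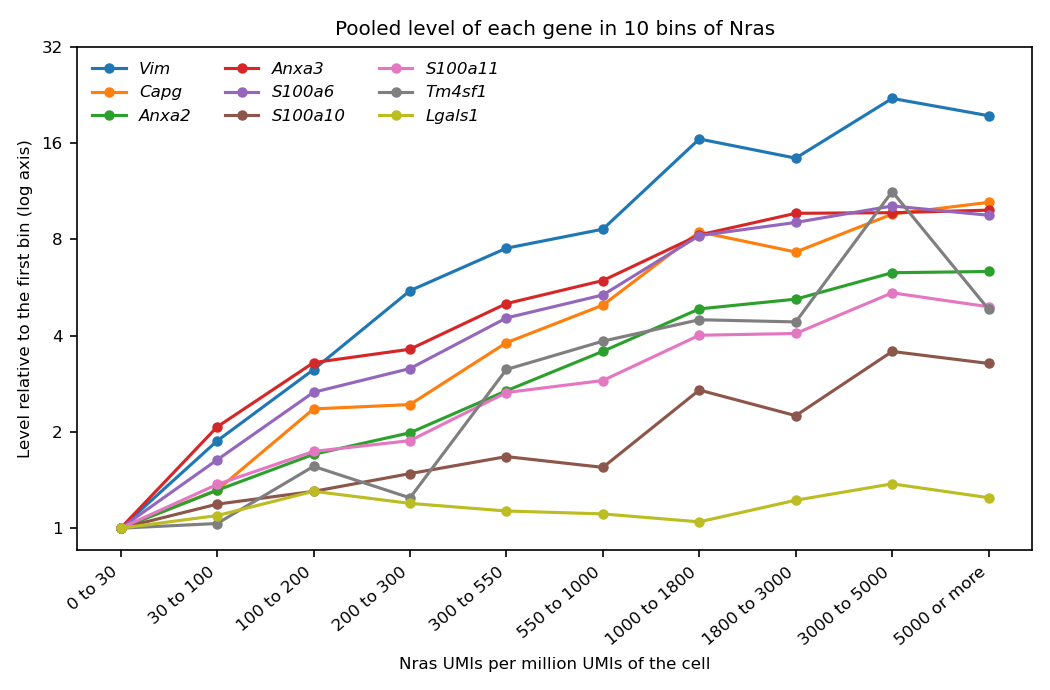
Pooled level of 9 genes in 10 bins of Nras CPM, relative to the first bin, on a log axis. Vim climbs from 95.4 CPM in the first bin to 2108 CPM in the bin at 3000 to 5000, most other genes level off above 1000, and Lgals1 stays near 1.

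Cells of 1 Nras level were far from uniform. At baseline the 10th percentile, median and 90th percentile of S100a6 were 0, 215.8 and 3927 CPM, and at high Nras they were 616.2, 8184 and 14266 CPM. For Vim they were 0, 27.1 and 464.5 CPM at baseline and 34, 1129 and 5251 CPM at high. The ranges overlapped widely. Of the high-Nras cells, 81.7% exceeded the baseline 90th percentile for Anxa2, 77.9% for S100a11, 74.8% for S100a6, 68.7% for Anxa3, 64.9% for Vim, 64.1% for Capg and 48.1% for S100a10. The figures were 26.7% for Tm4sf1 and 16.8% for Lgals1.

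Within a level the genes varied together from cell to cell. With each cell thinned to 10000 UMIs, the median Spearman rho over the 36 pairs of the 9 detected genes was 0.26 at baseline, 0.35 at low, 0.43 at intermediate and 0.41 at high. Anxa3 with S100a6 was the closest pair at baseline (0.66, 1610 cells), low (0.80, 258 cells) and high Nras (0.78, 131 cells), followed by Vim with S100a6 (0.62, 0.76 and 0.75). At intermediate Nras (173 cells) Vim with S100a6 was the closest, at 0.82, and Anxa3 with S100a6 was at 0.73. Anxa2 and S100a11 reached 0.73 at high Nras. Pairs with Tm4sf1, Lgals1 or Capg were mostly looser. Lgals1 and Tm4sf1 themselves were at 0.10 at baseline and at high Nras, 0.17 at low and 0.15 at intermediate. Values of rho between a gene and Nras inside the high level ran from −0.08 for Capg to 0.15 for Anxa2 and S100a10, and inside baseline from 0.05 for Lgals1 to 0.24 for Vim, Anxa3 and S100a6. The levels were cut on Nras, which narrows its range inside each and can lower these values beforehand, and Nras was not thinned. They are therefore not set against the rho between genes. The cells behind all these values share a library and come from few mice.

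Inside a level the genes also varied with the share of UMIs from the 5 hepatocyte gate genes, a share whose total includes the members' own UMIs. At baseline Nras, Vim was 567.4 CPM in the tertile of cells with the lowest share and 15.1 CPM in the tertile with the highest, a 37.7-fold range. For Anxa3 the same range was 20.4-fold and for S100a6 18.4-fold, whereas for Anxa2 it was 3.22-fold, for Lgals1 2.74-fold and for S100a10 1.94-fold. At baseline each of the 9 detected genes was highest in the lowest tertile. Splitting each mouse at its median share gave the same order: baseline Vim was 567.2 against 61.6 CPM for hashtag 1, and 399.3 against 17.1 CPM in hashtag 2. At high Nras the range was 4.09-fold for Vim, 2.62-fold for Anxa3, 2.13-fold for S100a6 and 1.82-fold for Anxa2, narrower than at baseline, but 2.44-fold for S100a10 and 3.22-fold for Lgals1, wider than at baseline. Split at the median share of hashtag 1, Anxa2 (2.28 to 2.59) and Tm4sf1 (6.88 to 8.03) had the wider range at high Nras too, and in hashtag 2 both had the narrower (2.43 to 1.78 and 8.57 to 2.22). The median share itself fell from 7.73% at baseline to 5.66%, 3.75% and 3.52% at the other levels.

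At a matched share the Nras levels still differed. Among cells with a share of 3 to 5%, Vim was 482.9 CPM at baseline (236 cells) and 868.6, 1666 and 2342 CPM at low, intermediate and high Nras (44, 46 and 44 cells). In that bin S100a6 went from 2902 to 5352, 8328 and 9379 CPM and Anxa3 from 339.9 to 595.7, 898.6 and 907.7 CPM. The direction was shared by the mice: Vim at high against baseline was 1769 against 339.4 CPM in hashtag 1 (9 and 16 cells) and 2172 against 644.0 CPM in hashtag 2 (23 cells at high). Pooled Lgals1 was lower at high than at baseline in this bin, 242.6 against 293.8 CPM, but the mice differed, with 230.3 against 224.6 CPM for hashtag 1 and 255.0 against 288.5 CPM for hashtag 2. At 5 to 8% it was lower at high Nras in the pool, 122.3 against 254.2 CPM, and in both mice. In cells with a share of 8% or more, Vim was 26.7 CPM at baseline and 72.6 CPM at high Nras, where only 16 cells remained, and S100a6 in hashtag 1 ran the other way, at 229.6 and 93.4 CPM (40 and 3 cells). S100a10 in these cells was 508.5 and 504.3 CPM.

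**Figure D3:**
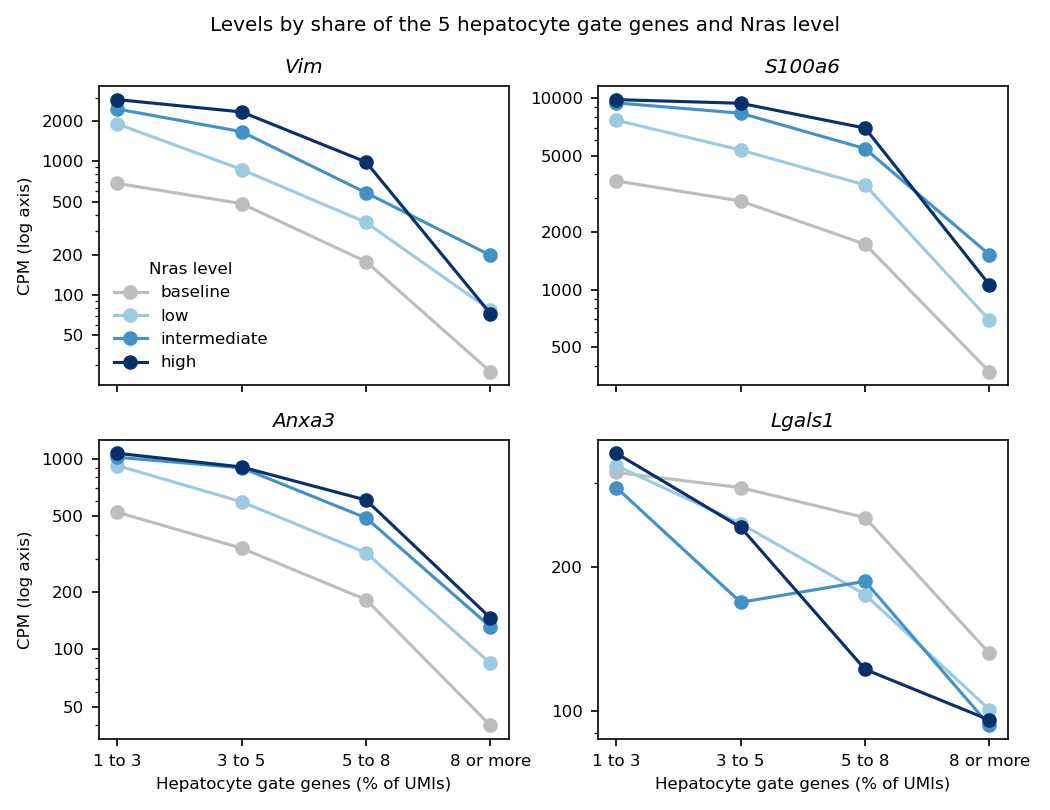
Pooled CPM of Vim, S100a6, Anxa3 and Lgals1 on log axes, by share of UMIs from the 5 hepatocyte gate genes and by Nras level. Vim, S100a6 and Anxa3 fall with the share and lie higher at high than at baseline Nras in each bin, and Lgals1 mostly falls with the share and lies lower at high Nras in all bins but the first (346.7 against 316.2 CPM).

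Levels of Vim, S100a6 and Anxa2 changed little across the 1% gate limit itself. Deep barcodes with no non-parenchymal gate and a share just inside the limit (1 to 1.5%, 114 barcodes) had 2118 CPM of Vim, 7148 CPM of S100a6 and 1208 CPM of Anxa2. Those just outside (0.5 to 1%, 45 barcodes) had 2221, 6705 and 1215 CPM and were not counted as hepatocytes. The widest gaps were in Lgals1, 521.3 CPM outside against 368.3 CPM inside, and Tm4sf1, 645.4 against 502.7 CPM.

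Non-parenchymal barcodes had a different mixture of these genes. Their 1467 barcodes were shallower, with a median of 6605 UMIs. S100a6 was 227.1 CPM in them (218.1 to 236.4) and Anxa2 200.6 CPM (192.2 to 209.4), both under the baseline hepatocyte levels of 1431 and 263.7 CPM. Vim stood at 460.1 CPM, between baseline and high-Nras hepatocytes, and reached 2288 CPM (1997 to 2610) in the 18 stellate and mesenchymal-like barcodes. Tm4sf1 was 701.3 CPM (668.2 to 735.5) and Lgals1 835.6 CPM (799.5 to 872.9) in 551 endothelial-like barcodes, above every hepatocyte level. Anxa1 was 319.5 CPM (217.1 to 453.5) in stellate and mesenchymal-like and 57 CPM (51.7 to 62.7) in 758 leukocyte barcodes of no narrower type, against 0 UMIs in high-Nras hepatocytes. Capg was 228.0 CPM (177.0 to 289.0) in 38 macrophage-like and 313.6 CPM (204.8 to 459.4) in 29 B cell-like barcodes, above the 133.8 CPM (125.3 to 142.6) of high-Nras hepatocytes. S100a11 was 875.6 CPM (854.4 to 897.2) in those leukocyte barcodes, below the 1270 CPM (1244 to 1297) of high-Nras hepatocytes. Vim UMIs per Lgals1 UMI were 1.02 in baseline and 8.31 in high-Nras hepatocytes, 0.519 in endothelial-like barcodes, 4.15 in leukocyte barcodes and 3.83 in stellate and mesenchymal-like ones. S100a6 per Vim was 6.92 in baseline and 4.02 in high-Nras hepatocytes, and at most 2.94 in any of the 6 gated types.

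**Figure D4:**
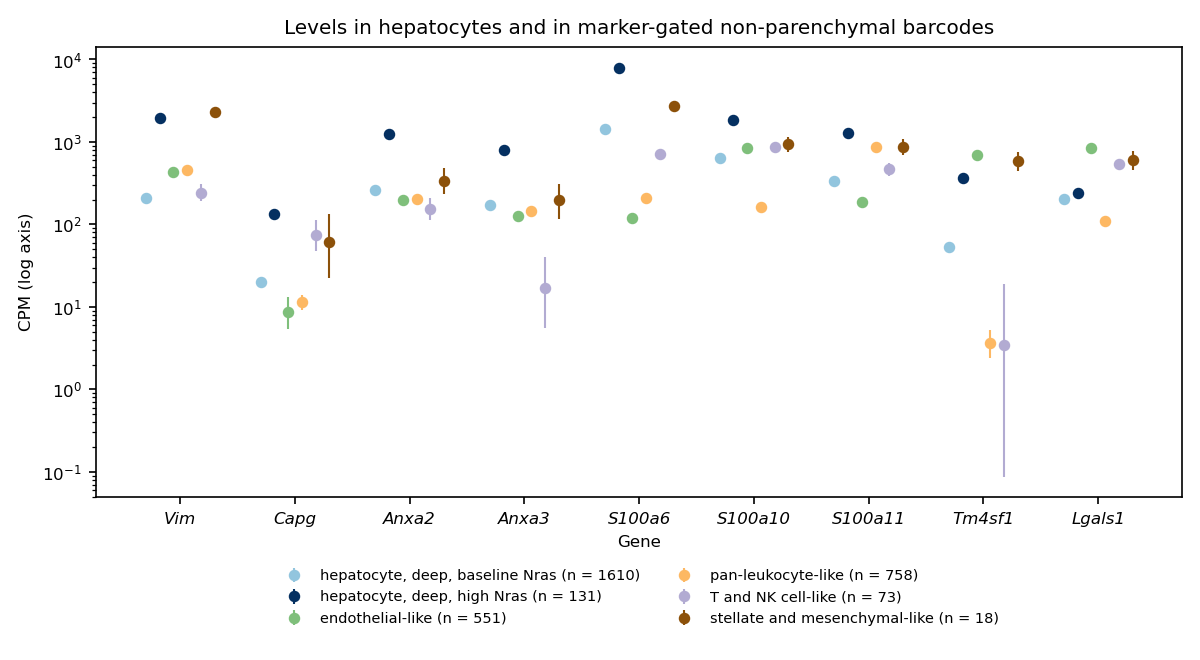
CPM on a log axis of 9 genes in deep hepatocytes at baseline and high Nras and in 4 sets of marker-gated barcodes, with exact 95% Poisson intervals. Of the sets drawn, high-Nras hepatocytes lie highest for Capg (macrophage-like and B cell-like barcodes, not drawn, lie higher), Anxa2, Anxa3 and the S100 genes, stellate and mesenchymal-like barcodes for Vim (2288 CPM), and endothelial-like barcodes for Tm4sf1 and Lgals1.

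Markers of the gated non-parenchymal types were low in the hepatocytes, in part by selection, since barcodes with more of them were removed by the gates. The dendritic cell, mesothelial and biliary lists were not used to gate. The summed endothelial list (10 genes) was 22.2 CPM at baseline and 30.7 CPM at high Nras, against 12130 CPM in endothelial-like barcodes, and Stab2 was at 0 at high Nras. The stellate and mesenchymal list (9 genes) was 1.45 and 3.29 CPM, against 17954 CPM in its own type, with Col1a1, Col1a2, Pdgfrb, Des and Lum at 0 at high Nras, and the macrophage list (9 genes) was 1.57 and 2.29 CPM, against 18833 CPM, with Clec4f, Adgre1 and Marco at 0. The B cell list (4 genes) was 0.518 and 0 CPM, the T and NK list (8 genes) 0.467 and 3.43 CPM with 4 genes at 0 at high Nras, and the mesothelial list (4 genes) 0.0835 and 1 CPM with Upk3b, Wt1 and Upk1b at 0. The leukocyte list (7 genes) moved in opposite directions in the mice, from 51.4 to 6.62 CPM for hashtag 1, and from 8.52 to 28.8 CPM in hashtag 2, and the dendritic cell list (7 genes) from 20.8 to 0 and from 3.62 to 16.3 CPM. In hepatocytes with no UMI of these last 2 lists (1283 at baseline and 92 at high Nras, a choice made after the data were seen) the median log2 ratio of the 10 genes was 2.19. Among 7 biliary genes Spp1 moved with the set, at 3359, 10598, 16221 and 16544 CPM over the 4 levels, and Sox9 was 85.8 CPM at baseline and 153.1 CPM at high, while the cholangiocyte keratin Krt19 was 0.718 and 0 CPM (7.91 CPM at low Nras), Krt7 0.317 and 0.143 CPM, Cftr 0.0167 and 0 CPM, and Onecut1 17.4 and 2.57 CPM. Epcam was 1.15 and 7.43 CPM in the pool, with 2.58 and 0.945 CPM among hashtag 1 cells, with 0.485 and 9.67 CPM for hashtag 2. Doublets inside a mouse and free RNA were not removed, and their part in the levels was not tested.

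To place the 10 genes among their families, UMIs were summed per hashtag and level and fitted for all genes with edgeR's quasi-likelihood test with the mouse as a block (8 sums of hashtags 1 and 2). High against baseline Nras, 1376 of 10318 genes passed an adjusted p of 0.05 as higher (13.3%) and 1372 as lower (13.3%), with a median log2 fold change of −0.01. The test rests on 2 mice, and the 8 sums hold no repeat of a mouse at a level. Its p-values set the mean difference against a residual spread, which comes from how far level differences disagreed between those 2 mice and is partly shared across genes. A small p-value does not by itself show that the mice agreed. Whether both carried the same construct is not settled by the labels. The gene lists were drawn up with earlier results of these cells known and no list was tested as a whole. The genes named from them were mostly picked as the largest changes, so their values and p-values describe those genes and not their lists.

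Of the other annexins, 4 of 5 tested rose and 1 fell (9 listed). Anxa5, which binds exposed phosphatidylserine, went from 552.5 to 1177 CPM for hashtag 1, and from 446.8 to 1263 CPM in hashtag 2 (log2 fold change 1.31 ± 0.11 SE, edgeR adjusted p = 3.00e-06), and Anxa4 and Anxa11 rose by 1.29 and 0.65. Anxa6 fell by 0.62. The call for Anxa11 was lost in 5 of 14 alternative fits and that for Anxa6 in 3. Among the 14, the fits at 20000 UMIs and with no leukocyte or dendritic marker UMI had high Nras from hashtag 2 alone. The other S100 genes were mixed, with 2 of 6 tested higher and 1 lower of 14 listed. S100a13 rose by 0.58, a call lost in 3 of 14 alternatives. S100a4, known from fibroblasts and metastatic cells, was called higher, with 0.43 and 1.89 CPM for hashtag 1, and 0.371 and 6.6 CPM in hashtag 2. Both hashtag 1 values lie under the level of 3 UMIs in those sums (0.645 and 2.84 CPM), so no rise is read from that mouse. S100g was called lower but went from 3.44 to 3.78 CPM for hashtag 1, and from 17.4 to 2.12 CPM in hashtag 2, so the mice did not share its direction. Among the other galectins 2 of 6 tested rose (Lgals2 and Lgals3, by 2.61 and 0.68) and Lgals9 fell by 0.94, the last from 136.0 to 73.7 CPM for hashtag 1, and from 109.4 to 54.7 CPM in hashtag 2. Lgals2 stayed under 6 CPM in every sum, and the Lgals3 call was lost in 4 of 14 alternatives, DESeq2 among them.

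Filament and cytoskeleton genes mostly stood higher. Of the other intermediate filaments 5 of 7 tested rose and 0 fell. Krt18, a hepatocyte keratin, went from 1113 to 3862 CPM among hashtag 1 cells, and from 1120 to 4008 CPM among those of hashtag 2 (log2 fold change 1.83 ± 0.08 SE, edgeR adjusted p = 6.41e-08), Krt8 and the nuclear lamin gene Lmna rose by 1.81 and 1.82, and the low Krt23 and Krt20 by 3.08 and 2.67. Of 32 actin and actin-binding genes tested 23 rose and 1 fell. The membrane linkers Ezr and Msn rose by 1.77 and 1.74 and the actin bundler Pls3 by 1.71, while Rdx, the third gene of the Ezr and Msn family, fell by 0.90 (232.1 to 114.3 CPM for hashtag 1, and 204.9 to 114.9 CPM in hashtag 2). Of 8 tubulins tested 6 rose, led by Tuba1a (2.61), Tubb6 (1.36) and Tuba1b (0.95). Of 13 other surface genes with 4 membrane-spanning segments 9 rose and 1 fell, led by Emp1 (3.35), Emp3 (7.74 to 20.8 and 3.93 to 30.2 CPM in the 2 mice) and Tspan8 (1.74). Cd81 fell by 0.27, a call lost in 9 of 14 alternatives.

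Genes of the mesenchymal transition were mixed. Of 13 tested, 4 rose, 2 fell and 7 did not pass. Cd44, a hyaluronan receptor, went from 24.9 to 116.2 CPM for hashtag 1, and from 21.5 to 139.9 CPM in hashtag 2 (log2 fold change 2.52 ± 0.14 SE, edgeR adjusted p = 2.25e-07), and Itgb1 and Tgfb1 rose by 0.77 and 0.83. The Tgfb1 call was lost with DESeq2 and without the non-parenchymal gate, and in each of those fits only 2 genes of the list were higher. Epcam, an epithelial gene, was called higher, but its direction differed between the mice, and its call was lost in the same 2 fits and with levels by mVenus. The tight-junction gene Cldn1 fell by 1.76 and Fn1 by 0.78. The epithelial cadherin Cdh1 had a log2 fold change of 0.01 ± 0.15 SE, with 78 and 90.7 CPM among hashtag 1 cells, with 84.7 and 76.7 CPM for hashtag 2, and Cdh2 had −0.36. Snai1, Twist1, Twist2, Zeb2 and Tgfbi were too low to be tested. Mature hepatocyte genes gave the opposite picture to the set, with 23 of 24 tested lower and 0 higher. The bile acid and organic anion carriers Slco1b2 fell by 5.27 and Slc10a1 fell by 5.13, and the drug-metabolizing Cyp3a11 fell by 4.59, each to between 0.945 and 3.78 CPM at high Nras in the 2 mice. The hepatocyte transcription factor Hnf4a did not pass, at 104.9 and 91.7 CPM among hashtag 1 cells, with 105.9 and 118.9 CPM for hashtag 2.

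**Figure D5:**
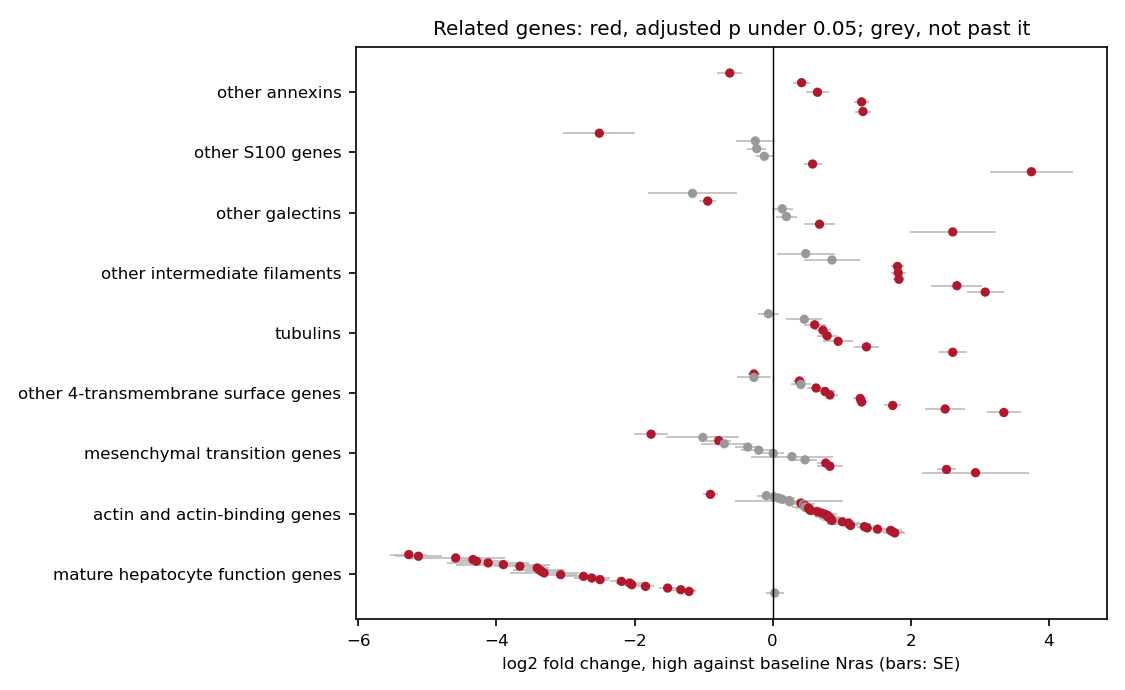
log2 fold change with SE of high against baseline Nras for related genes by list, from edgeR over 8 sums, red past an adjusted p of 0.05 and grey not past it (Tm4sf5, with an SE of 3.23, is left out). Intermediate filaments, 7 of 8 tubulins and most actin genes lie to the right and 23 of 24 mature hepatocyte genes to the left, while S100 genes, galectins and mesenchymal transition genes lie on both sides.

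The genes whose pattern over the 8 sums was most like the mean of the 9 detected members, among 7355 genes at 10 CPM or more in a sum, were Arpc1b and Pold4 (Pearson r = 0.999 each), Fkbp1a and Pam (0.993 each), Pfdn1 (0.992), Tuba1a and Cd14 (0.991 each), then Sprr1a, and Vdac2 and Eif3m (0.989 each). Arpc1b, a subunit of the actin-nucleating Arp2/3 complex, went from 169.1 to 244.1, 290.0 and 360.1 CPM for hashtag 1, and from 146.8 to 238.2, 300.5 and 370.8 CPM in hashtag 2. Sprr1a, a cornified-envelope protein of squamous epithelium, went from 157.9 to 375.0, 934.9 and 1472 CPM and from 110.7 to 519.9, 975.9 and 1346 CPM. A high r therefore covered a 2-fold as well as a 10-fold range. Among the members r was 0.996 for S100a11, 0.994 for Anxa2, 0.985 for S100a6, 0.979 for Capg, 0.977 for Anxa3, 0.961 for Vim, 0.954 for S100a10 and 0.925 for Tm4sf1, against 0.296 for Lgals1. The 8 sums are 4 levels of 2 mice and are not independent, and the members are part of the mean they are compared with.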

How the data were processed

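A gene library and a hashtag library of 1 pool of 3 mice were used. The authors deposited UMI counts per gene and barcode, made with Cell Ranger on mm10 (version 2.1.1 in the submitters' processing notes), and deposited counts of hashtag UMIs, neither normalized. The gene library held 141975897 UMIs, Nras and mVenus left out, with a median of 3908 per barcode.

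The members and lists were chosen with earlier results of these data known. Barcodes over 20% mitochondrial UMIs and 271 hashtag doublets (HTODemux, Seurat 5.3.0, quantile 0.99) were left out; no expression-based doublet caller was run. Levels are CPM (UMIs scaled to a total of 1000000) of a sum of cells, without Nras and mVenus, and ratios use log2(CPM + 1). All genes were fitted with edgeR 4.0.16 on sums of at least 20 cells per hashtag and level, with Benjamini-Hochberg adjustment. The alternatives changed the fit (DESeq2 1.42.0, other size factors, no filter on low counts, no replicate block), the cell limits, the Nras levels and the hashtag calls. The fit was tested on simulated data, where it recovered 30% of 50 genes changed by a fold of 2 and 24% of 50 changed by 0.5. At folds of 4 and 0.25 it recovered 100% and 96%. The simulated counts had 1 fixed spread for all genes and the same gene means in every sum, which is not the setting of the data. These shares are therefore not the recovery of the real fit, which called changes under 2-fold such as Cd63 (log2 fold change 0.39). A gene that did not pass may still have changed. Related genes were named as the up to 3 largest changes per list that passed and had the same direction in both mice, and genes alike in pattern by the 10 highest Pearson r. Other related genes were chosen after their values were seen.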

Additional observations from a re-analysis of the deposited data

Results flagged for a closer look

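Steps between Nras levels ran in opposite directions in the mice for some members, and the differences were not tested. Vim from intermediate to high Nras had a log2 ratio of 0.95 in hashtag 1 and −0.08 in hashtag 2. Tm4sf1 from low to intermediate had 0.51 in hashtag 1 and −0.10 in hashtag 2. Lgals1 from low to intermediate had −0.43 in hashtag 1 and 0.07 in hashtag 2. Each hashtag 1 level above baseline held 22 to 30 cells.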

How the results depend on the processing

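The median log2 ratio of the 10 genes, high against baseline Nras (2.21), ran from 1.91 to 2.27 over 15 alternatives, 1.91 to 2.26 of them from leaving out 1 hashtag at a time. The number of genes called (2748) ran from 1854 (DESeq2) to 3014 (quartiles of Nras) over 14 alternatives, and without the replicate block it was 2338, of which 2336 were also called with it. At a depth limit of 20000 UMIs, and in cells with no leukocyte or dendritic marker UMI, hashtag 1 had too few high-Nras cells for a sum. High Nras rested on hashtag 2 alone in those fits. Lgals1 changed direction with the hepatocyte gate at 5% (−0.57), and the cause was not tested. Ratios of Vim, Anxa2, Anxa3, S100a6, S100a11, Capg and Tm4sf1 stayed over 1 in all 16 settings and that of S100a10 in 15. The deep depth limit of 10000 UMIs left 6643 shallower hepatocytes out. A fixed hashtag rule (at least 10 UMIs, 80% from 1 tag) gave no deep hepatocyte to a different tag than HTODemux did, but left out 748 of the cells called for hashtag 2 and added 285 to hashtag 1. The median ratio under it was 2.01 in hashtag 1 and 2.54 in hashtag 2. The fit could not be made with the hepatocyte gate at 5% or with 1 hashtag left out, since no residual degrees of freedom remained.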

Other observations

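Hepatocyte barcodes under 10000 UMIs (6643, median 2308 UMIs, all Nras levels together) had 203.8 CPM of Vim, 273.9 CPM of Anxa2, 114.7 CPM of Anxa3, 1121 CPM of S100a6, 401.1 CPM of S100a11 and 175.0 CPM of Lgals1, while S100a10 was 1039 CPM against 645.5 CPM in deep baseline hepatocytes. Inside the deep baseline cells S100a10 was 886.9 CPM at 10000 to 20000 UMIs, 560.8 CPM at 20000 to 40000 and 655.4 CPM above that, and S100a11 was 469.5, 321.5 and 327.3 CPM.

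Barcodes that passed both the hepatocyte and a non-parenchymal gate (481, median 2097 UMIs) had 24 CPM of Anxa1 (18.4 to 30.9), 380.4 CPM of Vim, 1417 CPM of S100a6 and 137.8 CPM of Tm4sf1. They were left out of the comparisons except in the alternative without the non-parenchymal gate, which took in the deep ones (64 in all Nras levels and hashtags).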
